A study of Drosophila melanogaster with 3 samples.

Results

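Small nucleolar RNA (snoRNA) genes and the genes that contain them were examined for peaks of tagged Grauzone on chromatin of fruit fly embryos. Every gene with the biotype snoRNA on chromosomes 2, 3, 4 and X of the Ensembl annotation was taken, which gave 269 of the 17896 genes counted. Of these, 247 lay inside another gene on the same strand, called the host, and 22 lay outside any such gene. The hosts numbered 92, of which 82 were protein-coding and 10 noncoding. A gene was counted as having a peak when the point source, the most enriched base of a peak, lay within 500 bp of an annotated transcript start. The embryos came from a transgenic line that stably expressed Grauzone (gene grau) with green fluorescent protein (GFP) at its C-terminus, and chromatin was precipitated with an antibody against GFP, while the antibody field of the labels names grau. Whole embryos of 0 to 24 hours, with males and females pooled, made up 1 group of 3 biological replicates, and fragments were of 200 to 800 bp. All cell types and stages of those embryos were mixed, so a peak cannot be placed in a tissue or hour. The labels name a control experiment, and no list from it was analysed here. With 1 group and no control list, counts are set beside the same counts over all genes, and no test was made.

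snoRNAs are short nucleolar RNAs that guide the modification of other RNAs, mainly ribosomal RNA. Box C/D snoRNAs guide 2′-O-methylation by fibrillarin, and box H/ACA snoRNAs guide pseudouridylation by dyskerin, which is Nop60B in flies. Cajal body RNAs (scaRNAs) do the same for spliceosomal RNAs. In flies most snoRNAs are cut from introns of a host transcript, so that their synthesis starts at the host's promoter. Many hosts encode ribosomal proteins or translation factors, and others, the U snoRNA host genes (Uhg), are noncoding. Grauzone is a zinc finger protein known as an activator of cortex in the female germline.

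The classes named by the gene symbols were checked against sequence read from the dm6 genome. Box C in the form TGATGA in the first 20 bases together with box D, CTGA, in the last 20 was found in 76 of 109 box C/D genes (69.7%) and in 0 of 114 box H/ACA genes. The triplet ACA within the last 6 bases was found in 107 of 114 box H/ACA genes (93.9%) and in 8 of 109 box C/D genes (7.34%). Only the strand of the gene was searched. The genes below show both kinds, with these boxes in capitals. The first, at chr3L:8601473-8601552, plus strand, lies in an intron of RpL14, and the second, at chr3R:20574906-20575043, plus strand, lies outside any same-strand gene and had the highest peak among such genes.
snoRNA:U49:66Da: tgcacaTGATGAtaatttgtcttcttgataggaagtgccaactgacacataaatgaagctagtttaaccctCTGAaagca
snoRNA:Psi18S-301: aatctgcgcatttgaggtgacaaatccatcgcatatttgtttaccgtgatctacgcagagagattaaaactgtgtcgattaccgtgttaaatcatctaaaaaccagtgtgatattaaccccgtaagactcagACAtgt

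Windows of 50 bases on each side of a point source are shown for 7 members, on the strand of the gene and with searched motifs in capitals on either strand. They are the host with the highest signal (CG1142, chr3R:7473915-7474015, minus strand), a pair of ribosomal protein hosts (RpL28, chr3L:3222995-3223095, minus strand, and RpL22, chrX:765143-765243, minus strand), a pair of noncoding hosts (Uhg2, chr2L:9895019-9895119, minus strand, and Uhg3, chr2L:20647466-20647566, plus strand), and the peak by snoRNA:Psi18S-301 (chr3R:20574817-20574917, plus strand). The last is a peak inside Arpc2 close to snoRNA:Psi18S-525a (chr2L:20417845-20417945, plus strand). Each window of the pairs holds a searched motif, so the pairs are examples and do not show how common a motif is. CGATA was found in 8 of 26 ribosomal protein hosts with a peak, and CACGTG in 2 of 5 noncoding ones. Coordinates are on dm6. In capitals, RpL28 holds TATCGATA, the DNA replication-related element (DRE), RpL22 holds its core CGATA on the other strand, Uhg2 holds CGATA and the E-box CACGTG, Uhg3 holds CACGTG, and the window in Arpc2 holds GAGAG in overlapping copies on the other strand. The windows of CG1142, RpL28, RpL22, Uhg2 and Arpc2 overlap no annotated exon, that of Uhg3 covers 34 bases of its exon, and that of snoRNA:Psi18S-301 covers 12 bases of the gene. CG1142 and snoRNA:Psi18S-301 hold none of the 7 motifs searched.
CG1142: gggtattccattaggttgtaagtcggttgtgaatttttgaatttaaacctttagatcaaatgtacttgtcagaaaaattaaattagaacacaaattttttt
RpL28: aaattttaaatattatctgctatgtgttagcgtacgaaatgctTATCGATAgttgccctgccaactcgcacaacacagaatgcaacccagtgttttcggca
RpL22: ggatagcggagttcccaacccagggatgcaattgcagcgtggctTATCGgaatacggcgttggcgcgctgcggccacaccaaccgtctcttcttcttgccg
Uhg2: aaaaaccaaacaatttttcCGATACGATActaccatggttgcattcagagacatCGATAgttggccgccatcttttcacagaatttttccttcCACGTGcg
Uhg3: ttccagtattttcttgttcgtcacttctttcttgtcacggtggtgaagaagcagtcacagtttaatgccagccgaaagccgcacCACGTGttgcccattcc
snoRNA:Psi18S-301: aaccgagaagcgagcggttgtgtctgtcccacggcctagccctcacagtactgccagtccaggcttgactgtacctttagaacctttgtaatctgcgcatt
snoRNA:Psi18S-525a: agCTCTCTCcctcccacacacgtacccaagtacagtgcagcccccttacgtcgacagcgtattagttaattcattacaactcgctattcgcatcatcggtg

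The motifs were each searched on both strands. They were the DRE, TATCGATA, and its core in the form CGATA, which lies within it, and the GAGA element in the form GAGAG. The E-boxes searched were CACGTG and also the form CAGCTG. The others were the TATA box in the form TATAAA and the word GGTCACACT. The windows counted lay at the highest peak of each gene. Over all genes these were 3556 peaks, called peaks at starts here. In these windows, TATCGATA was found in 4 of 26 ribosomal protein hosts (15.4%) and 2 of 35 other protein-coding hosts (5.71%), beside 3.71% of peaks at starts. CACGTG was found in 2 of the 5 noncoding hosts with a peak and in 0.816% of the peaks at starts. The core CGATA was found in 20 of 66 hosts (30.3%) beside 21.7% of peaks at starts, and GAGAG in 5 of 66 (7.58%) beside 8.72%. TATAAA was found in 10 of 66 (15.2%) beside 22.9%, CAGCTG in 2 (3.03%) beside 4.22%, and GGTCACACT in 0 beside 1.72%. Over promoters, taken as 250 bases before to 50 bases after the 5′ end, TATCGATA was found in 8 of 28 ribosomal protein hosts (28.6%), in 10 of 54 other protein-coding hosts (18.5%) and in 0 of 10 noncoding hosts, beside 9.37% of 13945 protein-coding genes. Ribosomal protein genes that host no snoRNA gave 17 of 58 (29.3%). CACGTG was found in 4 of 10 noncoding host promoters and 4.24% of protein-coding ones. Over the promoters of all 92 hosts, TATAAA was found in 45.7%, CAGCTG in 8.70% and GGTCACACT in 8.70%. Protein-coding genes gave 45.9, 17.7 and 6.05%. At the 5′ end, TATCGATA was found in 13 of 66 hosts with a peak at any start (19.7%) and 5 of 26 without (19.2%). Of the 66, 61 had a peak within 500 bp of that 5′ end. Among the 4476 protein-coding genes with a peak at any start the share was 14.8%. The median GC share of the point source windows was 44.6% at ribosomal protein hosts, 32.7% at other protein-coding hosts and 32.7% at all peaks at starts. These matches describe letters only, and no site was tested.

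A larger share of hosts than of snoRNA genes had a peak at a start. In the reproducible list of 9624 peaks, 66 of 92 hosts had a peak at a start (71.7%, 95% Clopper-Pearson interval 61.4 to 80.6%), beside 27.5% of all genes and 32.1% of protein-coding genes. Of the 269 snoRNA genes, 23 had a peak at their own start (8.55%, 5.50 to 12.6%), beside 11.6% of ncRNA genes, a share that the interval includes. The intervals cover counting error only. Counted through the host, 177 of the 247 contained snoRNA genes (71.7%) had a host with a peak. Of the contained genes, 164 had a host with a peak and no peak of their own, and 69 had neither.

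The replicate lists, each of 30000 peaks, gave the same order. Hosts had a peak at a start in 74, 73 and 72 of 92 cases in replicates 1, 2 and 3, a mean of 79.3% ± 1.09 (SD, n = 3), beside 49.96% ± 2.15 of protein-coding genes. snoRNA genes had one in 68, 55 and 38 of 269 cases, 19.95% ± 5.59, beside 28% ± 0.881 of ncRNA genes and 45.3% ± 1.83 of all genes. The contained snoRNA genes gave 21.9, 15.8 and 8.5%, and other ncRNA genes inside a same-strand gene gave 20.4, 24.8 and 20.96%. The host shares lay within a narrow range, while the snoRNA share was highest in replicate 1 and lowest in replicate 3. In every replicate the hosts lay above protein-coding genes and the snoRNA genes below ncRNA genes, but contained snoRNA genes lay above other contained ncRNA genes in replicate 1 and below them in replicates 2 and 3. A peak in all 3 lists was found at 67 hosts (72.8%) and 29 snoRNA genes (10.8%), beside 35% of all genes and 39.5% of protein-coding genes.

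**Figure D1:**
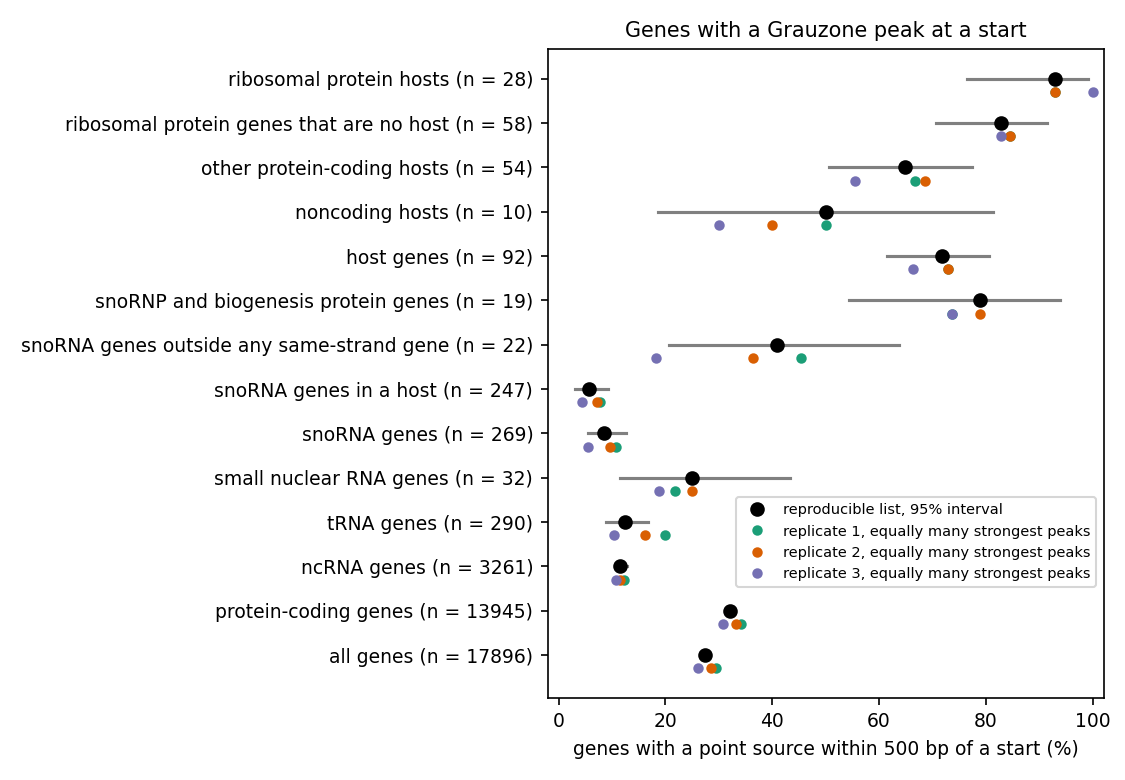
Share of genes with a point source within 500 bp of a start, on the horizontal axis in percent, for host genes, snoRNA genes and other gene classes. Black points with bars are the reproducible list with 95% Clopper-Pearson intervals, and coloured points are each replicate cut to the same number of strongest peaks, with equal values drawn over each other. Ribosomal protein hosts lie at 92.9% and contained snoRNA genes at 5.67%.

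Hosts that encode cytosolic ribosomal proteins had the highest share among the host kinds. Of 28 such hosts, 26 had a peak (92.9%, 76.5 to 99.1%), and 71 snoRNA genes lay in them. Ribosomal protein genes without a snoRNA gave 48 of 58 (82.8%, 70.6 to 91.4%), and the intervals overlapped. Other protein-coding hosts gave 35 of 54 (64.8%, 50.6 to 77.3%), an interval that overlaps narrowly with the former, beside 31.6% of the 13805 remaining protein-coding genes that host none. Noncoding hosts gave 5 of 10 (50%, 18.7 to 81.3%), all 5 among the 7 Uhg genes. Ribosomal protein hosts had a peak in 26, 26 and 28 of 28 cases in the full lists of replicates 1, 2 and 3. Those without a snoRNA gave 54, 53 and 53 of 58 (93.1, 91.4 and 91.4%).

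Promoters shared with a gene on the other strand also had many peaks, so both kinds were counted. A start within 500 bp of a start on the other strand is called divergent here. Peaks were found at 32 of 41 divergent protein-coding hosts (78.05%, 62.4 to 89.4%) and at 29 of 41 single-strand ones (70.7%, 54.5 to 83.9%). All protein-coding genes gave 54.8% of 4270 divergent and 22.1% of 9675 single-strand genes. Among ribosomal protein hosts, all 10 divergent and 16 of 18 single-strand genes had a peak. For other protein-coding hosts the counts were 22 of 31 and 13 of 23. The nearest annotated start to the host's highest peak belonged to the host for 52 hosts and to another gene for 14, and 26 hosts had no other gene's start within 500 bp of the peak.

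The point source lay upstream of the nearest host start in 54 of 66 hosts (81.8%), at a median of -70 bp. Ribosomal protein hosts had a median of -25.5 bp, with 23 of 26 within 150 bp of the start. This was not particular to hosts, since ribosomal protein genes without a snoRNA had a median of -34 bp, with 47 of 48 within 150 bp. Other protein-coding hosts had a median of -119 bp, with 19 of 35 within 150 bp. In all protein-coding genes with a peak, 85.8% were upstream and the median was -128 bp. In the reproducible list the median signal of the highest peak was 761.7 at ribosomal protein hosts, 487.4 at other protein-coding hosts and 792.0 at noncoding hosts. Protein-coding genes gave 539.0 and the whole list 439.2. The replicates gave another order. Other protein-coding hosts were at 3.17, 3.26 and 5.34 times the list median in replicates 1, 2 and 3, above protein-coding genes at 2.49, 2.35 and 3.15. Noncoding hosts were at 3.81, 4.25 and 1.74 times, below protein-coding genes in replicate 3. Signal is the authors' value per peak with no stated scale, and is compared only within a list or after division by the list's median.

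**Figure D2:**
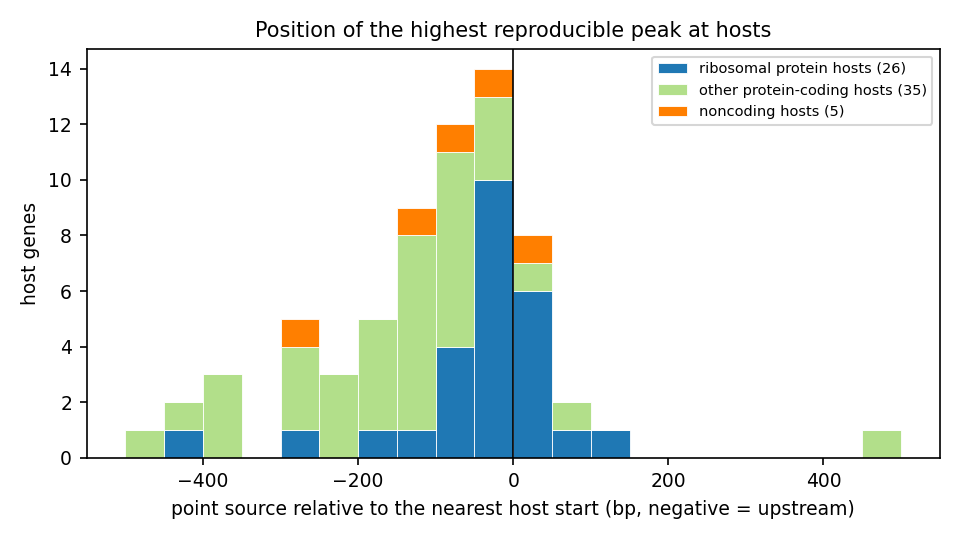
Number of hosts by position of the highest reproducible point source relative to the nearest host start, in bp, with negative values upstream, stacked by kind of host. Ribosomal protein hosts cluster near the start (median -25.5 bp), and other protein-coding hosts spread further upstream (median -119 bp).

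A snoRNA close to the host's start could share the host's peak, so contained genes were split by their distance from the nearest host start, which had a median of 1433 bp. Within 250 bp, 5 of 17 had a peak of their own and 11 a host with one. Over 250 and up to 500 bp these counts were 5 and 16 of 18. Over 500 and up to 1000 bp they were 1 and 42 of 51, over 1000 and up to 2000 bp 1 and 58 of 75, and beyond 2000 bp 2 and 50 of 86. Peaks at the snoRNA start were thus concentrated near the host start, while peaks at the host start were found at every distance. Of the 14 contained genes with a peak of their own, 11 had no peak besides the one at the host's start. The exceptions were snoRNA:Psi18S-525a in Arpc2, snoRNA:Or-CD4 in Uhg5 and snoRNA:Me18S-C1968 in Swim. Of the contained genes, 20 overlapped an exon of the host and the rest lay in introns. Over all 269 genes a reproducible peak overlapped 7 snoRNA genes, and the point source lay inside 1, snoRNA:Or-aca4. Among 921 other ncRNA genes inside a same-strand gene, 64 had a peak at their own start (6.95%, 5.39 to 8.79%), and the contained snoRNA genes gave 14 of 247 (5.67%, 3.13 to 9.33%), with overlapping intervals.

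**Figure D3:**
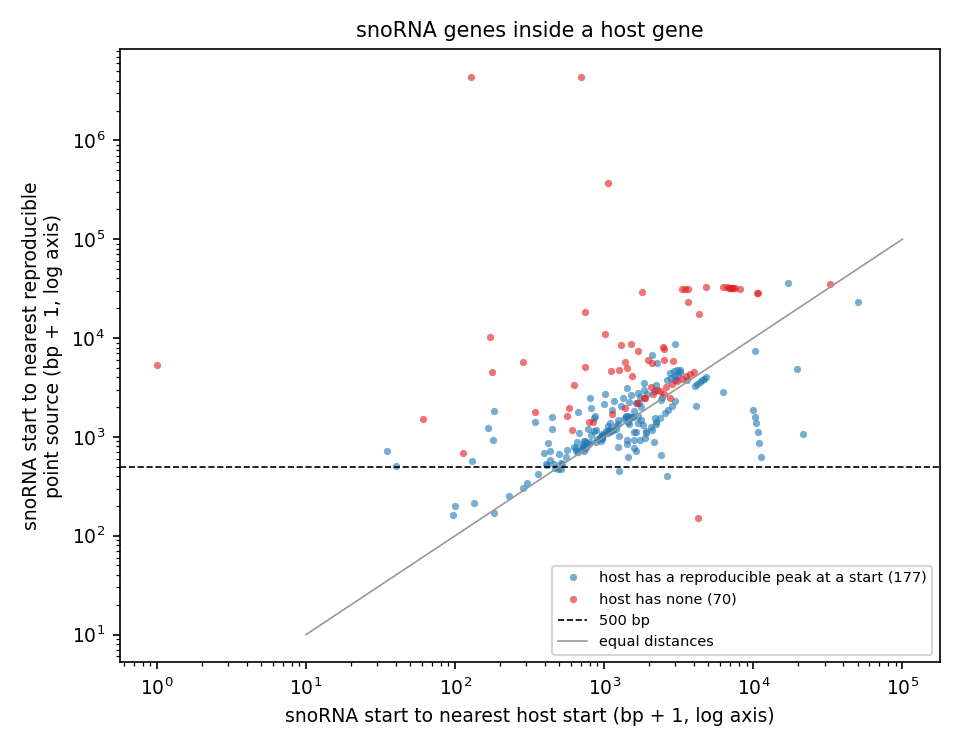
Distance from each contained snoRNA gene's start to the nearest reproducible point source against its distance to the nearest host start, both in bp plus 1 on log axes. Points for the 177 genes whose host has a peak scatter around the line of equal distances, and 14 of all 247 genes lie under the dashed line at 500 bp.

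Hosts of 3 or more snoRNA genes numbered 25 and held 168 of the contained genes. Of these, 19 had a reproducible peak (76%, 54.9 to 90.6%), beside 11 of 12 hosts of 2 and 36 of 55 hosts of 1 (65.5%). Arpc2, a subunit of the Arp2/3 complex that nucleates actin, lies at chr2L:20417057-20423027 and held the most, 17 box H/ACA genes. Its signal was 4.07, 4.91 and 10.1 times the median of the list in replicates 1, 2 and 3, 6.37 ± 3.28 (SD, n = 3), with replicate 3 highest. The point sources nearest to a start lay 16, 78 and 111 bp away. With peaks matched in all 3 replicates Arpc2 had none at a start, so the 3 values may come from different peaks. The reproducible peak had a signal of 780.2 (rank 2677) at -112 bp, and its nearest start, 27 bp away, belonged to the divergent gene CG10949. RpS5a, a small-subunit ribosomal protein, held 14 box H/ACA genes and reached 3.89, 4.03 and 6.11 times the median, 4.68 ± 1.24 (SD, n = 3), and all replicates held the peak.

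The noncoding Uhg hosts ranged widely. Uhg4 held 7 snoRNA genes and was the highest, at 11.9, 13.3 and 15.7 times the list median, 13.6 ± 1.95 (SD, n = 3), with a reproducible signal of 1732.9 (rank 972). Uhg8 was at 4.54, 5.2 and 11.3 times, 7.02 ± 3.75 (SD, n = 3). The higher of its 2 reproducible peaks lay nearer to the start of CG5199, and the other lay 77 bp from the start of Uhg8. Uhg2 was at 8.02, 4.95 and 4.74 times, 5.9 ± 1.84 (SD, n = 3), and was highest in replicate 1. Uhg5, with 11 box C/D genes, was at 3.09, 3.56 and 1.74 times, and Uhg3 at 2.87, 1.38 and 1.3 times. Uhg4 lay above Uhg2, Uhg5 and Uhg3 in every replicate. Uhg1, with 16 box C/D genes, had weak peaks in all 3 lists, at 1.23, 0.838 and 1.52 times the median, and none in the reproducible list within 500 bp, the nearest being 572 bp away. Uhg7 had no peak at a start in any list.

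Other hosts with many snoRNA genes lacked a reproducible peak. Domino (dom), the ATPase of a chromatin remodelling complex, held 15 snoRNA genes and had peaks at 3.19 and 2.82 times the median in replicates 1 and 2 and none in replicate 3. Sf3b3, a subunit of the SF3b splicing complex, had weak peaks at 1.91, 1.98 and 1.56 times the median, and lncRNA:CR45184, which overlaps it on the same strand and holds 5 snoRNA genes, had none. CG10576 had 1 peak, in replicate 1, at 0.781 times the median. Among the hosts with 3 or more that had a reproducible peak, Nop60B, the fly dyskerin, held 7 snoRNA genes and had peaks in replicates 2 and 3 at 1.97 and 3.81 times the median and none in replicate 1. Among hosts of 3 or more, dom, CG10576 and Nop60B were those with a peak in some lists only.

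Further hosts of 3 or more had a peak in every replicate. kra was at 3.05, 2.59 and 5.81 times the median, and Hrb98DE, an RNA-binding hnRNP protein, at 1.55, 1.73 and 6.68 times, so both were highest in replicate 3. Ribosomal protein hosts RpL28, RpS16, RpL17, RpL3, RpS4 and RpS7 had means of 9.31, 6.91, 6.22, 7.15, 7.52 and 3.59 times the median, with SDs of 4.0, 0.626, 0.361, 2.27, 0.904 and 0.911 (n = 3 each). RpS7 lay below RpL17 and RpS4 in every replicate. lola, a BTB zinc finger transcription factor gene with several starts, was at 9.79, 9.73 and 23.3 times. pAbp, the poly(A)-binding protein, was at 2.51, 9.74 and 11.3 times. The higher of its 2 reproducible peaks had its point source 495 bp downstream of a start, and the other lay 61 bp from a start. Stt3A, the catalytic subunit of an oligosaccharyltransferase, was the highest of the hosts of 3 or more, at 29.5, 31.6 and 36.8 times, 32.6 ± 3.79 (SD, n = 3). The start nearest its peak was that of the divergent gene bves, 211 bp away.

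**Figure D4:**
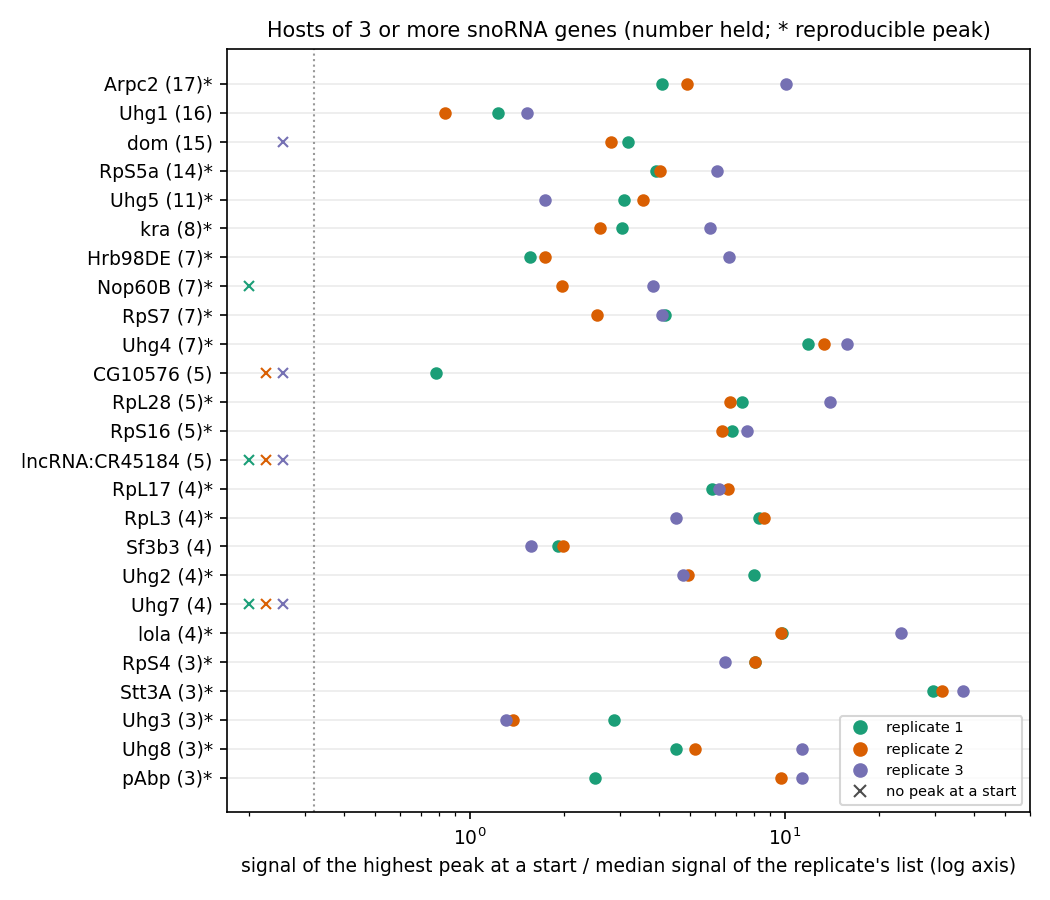
Signal of the highest peak at a start of each of the 25 hosts of 3 or more snoRNA genes, divided by the median of that replicate's list, on a log axis, with 1 point per replicate and crosses where a list holds no peak. Stt3A and Uhg4 are among the highest in all 3 replicates, while dom, Nop60B and CG10576 lack a peak in 1 or 2 lists, and Uhg7 and lncRNA:CR45184 in all 3.

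Among hosts of 1 or 2 snoRNA genes, the strongest was CG1142, which holds a Cajal body RNA gene. It was at 27.4, 32.4 and 48.3 times the list median, 36.0 ± 11.0 (SD, n = 3), with a reproducible signal of 4499.1 (rank 208). Next were Msp300, a nesprin that anchors nuclei in muscle, at 16.2, 18.6 and 35.0 times, and drn at 12.7, 13.9 and 28.2 times, both highest in replicate 3. The reproducible peak of Msp300 lay 362 bp upstream of a start inside the gene, and none lay within 500 bp of its 5′ end. Irbp, the fly Ku70 protein, was at 12.6, 15.1 and 19.2 times, and the start nearest its peak, 83 bp away, was that of mgr. Dys, encoding dystrophin, was at 9.98, 15.3 and 19.995 times, and CG12316 at 15.0, 11.1 and 17.3 times. RpL14 was the highest ribosomal protein host, at 13.7, 12.5 and 13.5 times, 13.3 ± 0.62 (SD, n = 3), with the smallest SD relative to the mean of these. RpS20 was at 9.1, 10.1 and 16.8 times, and the splicing factor gene SC35 at 8.71, 7.81 and 17.4 times. Each of these hosts had a peak in all 3 lists.

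Across the 92 hosts, 67 had a peak in all 3 lists, 7 in exactly 2, 4 in 1 and 14 in none. Of the 67, 62 were also in the reproducible list, and Uhg1, Sf3b3, Act57B, CG3902 and Swim were not. The scaled signal was highest in replicate 3 for 38 of the 67, in replicate 1 for 16 and in replicate 2 for 13. The median scaled signal of the 67 was 4.46, 4.95 and 6.18 times the list median in replicates 1, 2 and 3. For the 26 ribosomal protein hosts among them it was 6.0, 5.33 and 6.42, and for the 35 other protein-coding hosts it was 3.6, 3.82 and 5.81. Ribosomal protein hosts were higher in each replicate. The 2 ribosomal protein hosts without a reproducible peak, RpL15 and RpL5, had a peak in replicate 3 alone, at 3.55 and 4.39 times the median, and their nearest reproducible peaks lay 4357174 and 367333 bp away.

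The 269 genes were spread over 2L (41), 2R (96), 3L (52), 3R (48), 4 (1) and X (31). By class of guide, hosts of box H/ACA genes alone had a peak in 18 of 21 cases (85.7%, 63.7 to 97.0%), hosts of box C/D genes alone in 22 of 29 (75.9%, 56.5 to 89.7%) and hosts of Cajal body RNA genes alone in 6 of 13 (46.2%, 19.2 to 74.9%). These intervals overlapped. Counted over contained snoRNA genes, the host had a peak for 79.0% of box H/ACA genes (83 genes) and 66.3% of box C/D genes (67 genes). Genes in the same host share 1 promoter, and Arpc2, RpS5a, dom, Uhg1 and Uhg5 alone hold 17, 14, 15, 16 and 11 of them, so these are not independent counts.

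The 22 snoRNA genes outside any same-strand gene had reproducible peaks at their own start in 9 of 22 cases (40.9%, 20.7 to 63.6%), beside 14 of 247 contained ones (5.67%, 3.13 to 9.33%) and 27.5% of all genes. The interval lies above that of the contained genes and above the 11.6% of ncRNA genes, and includes the share of all genes. The 9 genes lay on 7 distinct peaks, because 3 neighbours shared 1. In the full lists, 14, 16 and 17 of 22 had a peak in replicates 1, 2 and 3. All genes gave 45.9, 46.7 and 43.2% in these lists. The order of the replicates reversed when each list was cut to as many of its strongest peaks as the reproducible list holds. The counts were then 10, 8 and 4 of 22, beside 29.4, 28.5 and 26.2% of all genes. In the full lists the median signal of these snoRNA genes was 2.70, 2.09 and 1.06 times the list median. snoRNA:Psi18S-301, a box H/ACA gene shown above, was at 11.9, 14.03 and 8.64 times the list median, 11.5 ± 2.71 (SD, n = 3), with a reproducible signal of 1481.9 (rank 1191) at -39 bp. The nearest start of a gene other than a snoRNA gene, TFAM, was 2104 bp away. snoRNA:Or-CD14, a box C/D gene, was at 8.32, 6.69 and 7.49 times, 7.5 ± 0.812 (SD, n = 3), with its point source 316 bp downstream of the start. Both had a peak in every replicate.

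The others with a reproducible peak were weaker or less even. snoRNA:Or-CD13 was at 8.16 and 12.7 times the median in replicates 2 and 3, with no peak in replicate 1. snoRNA:185 was at 8.52, 6.23 and 2.8 times, and the start of a glutamate tRNA gene, tRNA:Glu-TTC-1-5, lay 379 bp away. snoRNA:Psi28S-1153 and its 2 unclassified neighbours shared a peak at 2.7, 3.17 and 1.85 times the median, 2.57 ± 0.669 (SD, n = 3). snoRNA:Or-aca4 was at 2.85, 1.53 and 1.86 times, with the point source inside the gene, and snoRNA:Psi18S-176 was at 2.04 and 2.61 in replicates 1 and 2 alone. Their reproducible signals, from 253.3 to 1183.2, correspond to ranks 8007 to 1592 of 9624.

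The U3 genes encode a box C/D RNA that is needed for cleavage of the ribosomal RNA precursor and, unlike most, lie outside hosts. None of the 3 had a reproducible peak. snoRNA:U3:54Ab was at 1.1, 1.18 and 0.551 times and snoRNA:U3:9B at 0.719, 1.05 and 0.77 times the list median, while snoRNA:U3:54Aa had peaks in replicates 2 and 3 alone, at 0.928 and 0.954 times. These values lay near the median peak of each list. The starts of leucine tRNA genes lay 316 and 317 bp from those of snoRNA:U3:54Aa and snoRNA:U3:54Ab. Small nuclear RNA genes had a reproducible peak in 8 of 32 cases (25.0%) and tRNA genes in 36 of 290 (12.4%).

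**Figure D5:**
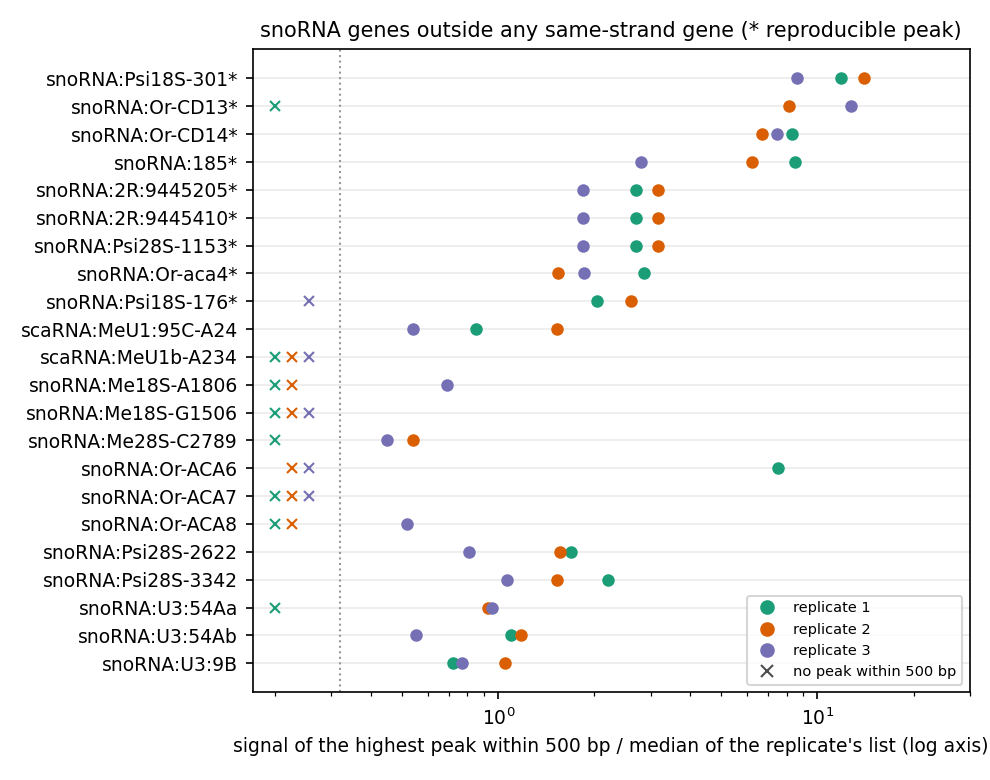
Signal of the highest peak within 500 bp of the start of each of the 22 snoRNA genes outside any same-strand gene, divided by the median of that replicate's list, on a log axis, with 1 point per replicate and crosses where a list holds no peak. snoRNA:Psi18S-301 is high in all 3 replicates, and the U3 genes lie near 1.

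Peaks inside hosts but away from their starts were counted apart. In 14 hosts, 57 reproducible point sources lay more than 500 bp from every start of the host and tou and Rbfox1 held 11 each. The peak inside Arpc2, shown above, lay 453 bp upstream of snoRNA:Psi18S-525a and 1258 bp separated that snoRNA from the host's start. It was at 22.2, 21.6 and 16.6 times the list median, 20.1 ± 3.05 (SD, n = 3), with a reproducible signal of 2605.2 (rank 518), above the 780.2 (rank 2677) at the Arpc2 start. It exceeded the peak at the start in every replicate. At the other exceptions, snoRNA:Or-CD4 was at 3.57, 3.4 and 3.95 times and snoRNA:Me18S-C1968 at 2.09, 2.59 and 1.5 times the median.

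Genes for proteins of the snoRNA particles and of their assembly were counted from a list of 24 symbols, of which 19 were found in the annotation. A reproducible peak was found at 15 of the 19 (78.9%, 54.4 to 93.9%), beside 32.1% of protein-coding genes. Of the box C/D core proteins, fibrillarin (Fib) was at 4.17, 3.59 and 3.91 times the list median, nop5 at 6.34, 5.39 and 13.1 times, and Nop56 at 2.47 and 2.9 in replicates 1 and 2 alone. hoip, a core protein that binds the guide RNA, had peaks in all 3 lists at 1.56, 2.05 and 2.9 times but none in the reproducible list. Of the box H/ACA core, NHP2 was at 7.29, 8.75 and 10.4 times, 8.83 ± 1.57 (SD, n = 3), and Nop60B is described above. GAR1 and NOP10, also of this core, were not found under the symbols searched and so were not counted. Fib, nop5 and Nop60B are also hosts.

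Among assembly factors, the ATPase gene pont was the highest of the list, at 23.3, 21.0 and 37.4 times, 27.2 ± 8.86 (SD, n = 3), with a reproducible signal of 3449.4 (rank 337), and its partner rept was at 3.9, 3.51 and 6.7 times. spag was at 2.72, 2.27 and 3.54 times. The nuclear exosome subunit Rrp6 was at 7.24, 5.69 and 11.2 times, the cap-binding proteins Cbp20 and Cbp80 at 4.28, 4.61 and 9.86 times and at 2.13, 1.16 and 2.24 times, and the export adaptor Phax at 3.31, 1.98 and 2.97 times. The nucleolar chaperone Nopp140 was at 3.12, 4.33 and 6.06 times, coilin (coil) at 3.51, 4.21 and 6.24 times and CG10341 at 1.63, 2.31 and 1.03 times. The exonuclease gene Rat1 and U3-55K, a protein of the U3 particle, had no peak at a start in any list, and Ars2 had 1, in replicate 1.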

How the data were processed

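Chromatin immunoprecipitation sequencing was done in 3 biological replicates of 1 group, per the labels. The authors deposited peaks for each replicate, peaks called on the pooled replicates, and a reproducible set that was thresholded by irreproducible discovery rate (IDR), per the file descriptions. Coordinates are on dm6, per the labels. The aligner, peak caller and threshold are not given in the sources used here. Each deposited list gives a signal score per peak, with no stated scale, a −log10 q-value and the offset of the point source. The q-value was not used in any count. Read depth is unknown here, so no interval for single peaks could be given.

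Gene starts and biotypes came from Ensembl release 115 and sequence from the RefSeq dm6 assembly, on the same coordinates. All peak and gene ends lay within the chromosome lengths. The host was the shortest same-strand protein-coding or ncRNA gene containing the snoRNA gene, and 11 snoRNA genes had several. Classes were read from gene symbols. A gene had a peak when a point source lay within 500 bp of any of its transcript starts, and its value was the highest such signal. For replicates it was divided by the median signal of the replicate's list of 30000 peaks. Peaks matched across replicates lay within 100 bp. Shares carry 95% Clopper-Pearson intervals, which cover counting error only, since neighbouring genes are not independent. Spread is the SD over 3 replicates. The reproducible list is a pooled result with no spread of its own. In the plot of shares, each replicate list was cut to its 9624 strongest peaks.

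Genes were named by rule: every host of 3 or more snoRNA genes, the 10 other hosts with the highest signal (1 of them is not reported here), up to 10 outside genes with the highest peak, hosts of 3 or more with a peak in some lists only, the U3 genes, and genes of the particle protein list with a peak. Others were named where a count of 5 or fewer called for it, after their values were seen. RpL22 was named outside these rules, as an example of a window. Box motifs were searched after the classes were seen. The members and lists were chosen with earlier results of these data known. Alternatives were the distance (250 and 1000 bp), the start used, overlap in place of the point source, list strength, the pooled list, matched replicates, leaving out each replicate and the choice of host. Counting functions were tested on simulated data. Python 3.11.15, numpy 2.4.6, scipy 1.17.1 and matplotlib 3.10.9 were used.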

Additional observations from a re-analysis of the deposited data

How the results depend on the processing

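The counts at hosts held to within 1.5 times under every alternative run, and those at the snoRNA genes' own starts did not. The largest change at hosts, from 66 to 44 with the stronger peaks of the reproducible list, lay on that limit. Of 269 snoRNA genes, 23 had a reproducible peak at their own start, against 12 within 250 bp, 80 within 1000 bp, 7 where the peak interval had to overlap the start, 13 with the stronger 4812 peaks and 48 with the pooled list. Leaving out a replicate also changes how the list is made, since peaks matched between the remaining lists replace the deposited reproducible list. The count was 21 with peaks matched in all 3 replicates, and from 21 to 29 without 1 replicate. For genes outside hosts, 9 of 22 became 5 with overlap, 4 with the stronger peaks and 17 with the pooled list, and 15 of 67 where only protein-coding genes could be hosts, a smaller share of more genes. Peaks matched in all 3 gave 8, and without 1 replicate 8 to 10. A peak in all 3 lists was found at 29 snoRNA genes, against 11 among the strongest peaks, 13 within 250 bp and 91 within 1000 bp, and from 30 to 41 where 2 lists sufficed. More or fewer genes qualify under a wider or narrower window by construction, and other causes were not tested.

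Hosts with a reproducible peak numbered 66, against 52 with peaks matched in all 3 replicates and 55 to 67 without 1 replicate. snoRNA genes whose host had one numbered 177, against 136 and 155 to 183. With the stronger peaks alone the counts were 44 hosts and 128 snoRNA genes. Where the peak interval had to overlap the start they were 55 and 151, and with the pooled list 72 and 201. Hosts with a peak in all lists numbered 67, and 68 to 72 where 2 lists sufficed. The matching counts through the host were 190, and 191 to 209. Of 35 named hosts, 21 kept their state under all 10 settings, and 30 of 350 pairs of host and setting changed. Against the deposited list, dom and Sf3b3 gained a peak without replicate 3. Nop60B lost it without replicate 2 or 3, RpS4 without replicate 1 or 2 and pAbp without replicate 2, and all 3 of these hosts also lacked one with peaks matched in all replicates. Arpc2 kept its peak without any 1 replicate but lacked one with peaks matched in all replicates. Uhg3 lost it without replicate 1 and Hrb98DE without replicate 3, and both had one with peaks matched in all replicates. The distance and the start used also mattered. Stt3A, Msp300 and SC35 had no peak within 250 bp. Where the peak interval had to overlap a start, Stt3A, Msp300, Nop60B and Hrb98DE had none. With the 5′ end of the gene alone, lola, pAbp and Msp300 had none. No paired analysis was possible because the study has 1 group. Peak lists give no read depth, so weak places cannot be told from places without a peak.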
